A study of Mus musculus with 33 samples.

Results

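Krt7, Krt19, Epcam, Sox9, Spp1, Cftr, Cd24a and Prom1 are genes used to recognise the bile duct epithelium of the liver and the duct-derived progenitor cells that appear in injured liver. These 8 genes were taken by symbol from a table of 21671 mouse genes, and all 8 were present. Their RNA was measured by strand-specific sequencing of total RNA from bulk C57BL/6 liver tissue in 33 libraries. In the short-term experiment, 6- to 8-week-old mice received the virus AAV8-TBG-CRE and were killed after 4 days. The 4 genotypes, with 5 livers each, were wild type, b-cat Ex3 (called Ex3 here), R26-lslMYC (MYC) and R26-lslMYC/b-cat Ex3 (MYC+Ex3), so that wild-type livers also carried the virus. The tumour experiment held 3 liver nodules from Alb-CreERT2/R26-lslMYC mice (MYC tumours), 3 from Alb-CreERT2/R26-lslMYC/b-catEx3 mice (MYC+Ex3 tumours) and, as controls, 7 wild-type livers taken 4 days after 4-hydroxytamoxifen (4-OHT livers). Mouse age and the time since Cre activation are not labelled for the tumours, and the 4-OHT livers are whole livers without the transgenes and not tissue from the tumour-bearing mice. The R26-lslMYC allele gives MYC after Cre removes a stop cassette, and the Ex3 allele loses an exon of b-catenin that carries the sites for its degradation. The TBG and albumin promoters direct Cre to hepatocytes, not to duct cells.

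Bile duct cells, or cholangiocytes, line the ducts that drain the liver, keep a simple epithelial keratin coat and secrete chloride and bicarbonate into bile. In chronic injury, cells with a mixture of duct and hepatocyte features spread from the ducts, and hepatocytes can switch on some of the same genes, Sox9 and Spp1 among them. Several of the genes are not specific to ducts: Spp1 is also made by macrophages and stellate cells, and Cd24a by granulocytes, red cell precursors and lymphocytes. In bulk tissue, fewer cells of a type and less RNA per cell cannot be told apart.

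Levels are given as RPKM, read numbers normalised to gene length and library size, as the authors deposited them. Read numbers recovered from these values gave 3.75 to 7.31 M reads in genes per liver of the virus experiment and 6.65 to 9.82 M per library of the tumour experiment. The mean RPKM over all genes was 14.8 to 17.0 in the first experiment and 3.18 to 4.51 in the second, so levels were compared within each experiment only. Changes are differences of mean log2(RPKM + 1) with the standard error of a limma fit over all genes of an experiment, and a change was called at a Benjamini-Hochberg adjusted p under 0.05. That scale understates the change of genes near or below 1 RPKM. Genes entered the test with at least 1 RPKM in at least 3 libraries, which kept 7 of the 8 markers in the virus experiment (not Cftr) and 4 in the tumour experiment (Krt19, Spp1, Cd24a and Prom1). Axin2, a b-catenin target, checks the Ex3 labels: it lay at 10.6 to 24.9 RPKM in Ex3 livers, against 2.73 to 4.30 in wild type, at 7.49 to 24.3 in MYC+Ex3 livers, against 0.513 to 6.99 in MYC livers, and at 7.63 to 11.3 in MYC+Ex3 tumours, against 0.0946 to 0.660 in MYC tumours. The Myc row does not check the MYC labels, because the species of the transgene is not given in the sources used here. All 8 proliferation genes examined were called higher in MYC livers than in wild type, where 22.3% of all genes were called. Comparisons against the same control group share its libraries and are not independent.

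Individual libraries stood apart and are named before the results. Ex3 liver replicate 2 held the highest RPKM of all 20 virus-treated livers for 4 markers (Krt7, Krt19, Epcam, Cd24a) and for 12 of 34 other duct genes. It also held mucosal and smooth muscle genes, which were picked out after the values were seen: Dmbt1 was at 105 RPKM and at most 1.91 in the other 19 livers, Spink4 at 25.7 against at most 1.42, Muc1 at 22.0 against at most 1.66, and Myh11 at 11.2 against at most 1.81. MYC liver replicate 5 held the highest RPKM of the 20 livers for 12 of 22 progenitor genes and 12 of 23 Notch genes. MYC liver replicate 4 held the highest for 7 of 34 other duct genes, and the lowest or tied lowest for 10 of 23 Notch genes. MYC tumour replicate 2 held the highest level of the tumour experiment for 5 markers (Krt7, Krt19, Epcam, Spp1, Cftr), and MYC tumour replicate 1 the lowest for 5 (Krt7, Krt19, Cftr, Cd24a, Prom1). MYC tumour replicate 1 also stood apart for Afp, a fetal liver protein (1.97 RPKM, with 29.6 for replicate 2 and 33.5 for replicate 3), and for Cdh1, which encodes E-cadherin (0.0761 RPKM, with at least 6.39 in every other library). A further split ran through the virus experiment: 10 of 20 livers held Krt5, Krt14 and Krt17, keratins of stratified epithelium, at a summed level above 1 RPKM. Each genotype had 3 such livers among its 5 except MYC, which had 1. Depth went with this split: livers with the keratins had 3.75 to 5.10 M reads in genes and those without 4.39 to 7.31 M. The comparisons were recomputed within these sets, except those with MYC livers among livers that held the keratins.

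Across the virus-treated livers, a fall of Epcam in MYC+Ex3 livers against Ex3 livers was the only called change among the markers. No marker was called in Ex3, MYC or MYC+Ex3 livers against wild type, or in MYC+Ex3 against MYC livers. The share of all genes called by limma in these comparisons was 21.1% for MYC+Ex3 against Ex3 livers, then 0.132%, 22.3%, 24.1% and 0.19% in the order named. In the tumours, MYC+Ex3 nodules were called higher for Cd24a and lower for Spp1 than 4-OHT livers (60.6% of all genes called), and each of them lay below all those livers for Krt19 and Epcam and above them for Sox9. The 3 MYC tumours differed from each other. Prom1 was called higher in them (49.8% of all genes called), in a test it entered through tumours alone and with a call that most other settings lose.

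Promoter sequence was available in the RefSeq table (GRCm38.p6) for 5 of the 8 markers: Krt7, Epcam, Spp1, Cftr and Prom1. The 250 bases before the start site are shown for the 3 of these genes whose level was called changed in a comparison below, 5′ to 3′ on the gene's strand (Epcam, chr17:87635729-87635978, plus strand; Spp1, chr5:104434861-104435110, plus strand; Prom1, chr5:44101737-44101986, minus strand).
Epcam: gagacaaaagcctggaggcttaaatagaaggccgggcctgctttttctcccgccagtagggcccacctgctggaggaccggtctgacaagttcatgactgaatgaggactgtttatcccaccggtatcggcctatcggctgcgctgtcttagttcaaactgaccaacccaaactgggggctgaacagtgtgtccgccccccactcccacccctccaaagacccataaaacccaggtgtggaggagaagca
Spp1: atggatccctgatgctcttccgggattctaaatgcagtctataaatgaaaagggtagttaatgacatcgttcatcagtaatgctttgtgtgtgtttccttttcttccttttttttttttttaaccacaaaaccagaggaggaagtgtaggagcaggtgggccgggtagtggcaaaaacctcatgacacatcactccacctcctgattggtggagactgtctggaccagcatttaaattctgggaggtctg
Prom1: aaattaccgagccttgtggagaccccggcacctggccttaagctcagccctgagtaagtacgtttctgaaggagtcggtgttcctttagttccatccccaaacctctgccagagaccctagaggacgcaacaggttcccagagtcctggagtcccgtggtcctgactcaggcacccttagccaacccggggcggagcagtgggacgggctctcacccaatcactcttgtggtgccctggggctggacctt

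Both strands of the 7 promoter windows listed for these genes, each from 250 bases before to 50 after a start site, were searched for 4 motifs: the MYC-MAX E-box CACGTG, the TCF/LEF motif CTTTGAT through which b-catenin acts, the TEAD motif GGAATG and the RBPJ motif GTGGGAA of Notch signalling. None of these motifs contains another. The only match was an E-box in Epcam, 30 to 35 bases after its start site, shown in capitals in the 30 bases around it (chr17:87635997-87636026).
Epcam E-box: ggactgattctgCACGTGagacctgcggcg
Of 32851 promoter windows in the table, 7.15% held the E-box, 3.73% the TCF/LEF motif, 14.7% the TEAD motif and 6.38% the RBPJ motif. The matches are matches of letters and say nothing on binding.

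**Figure D1:**
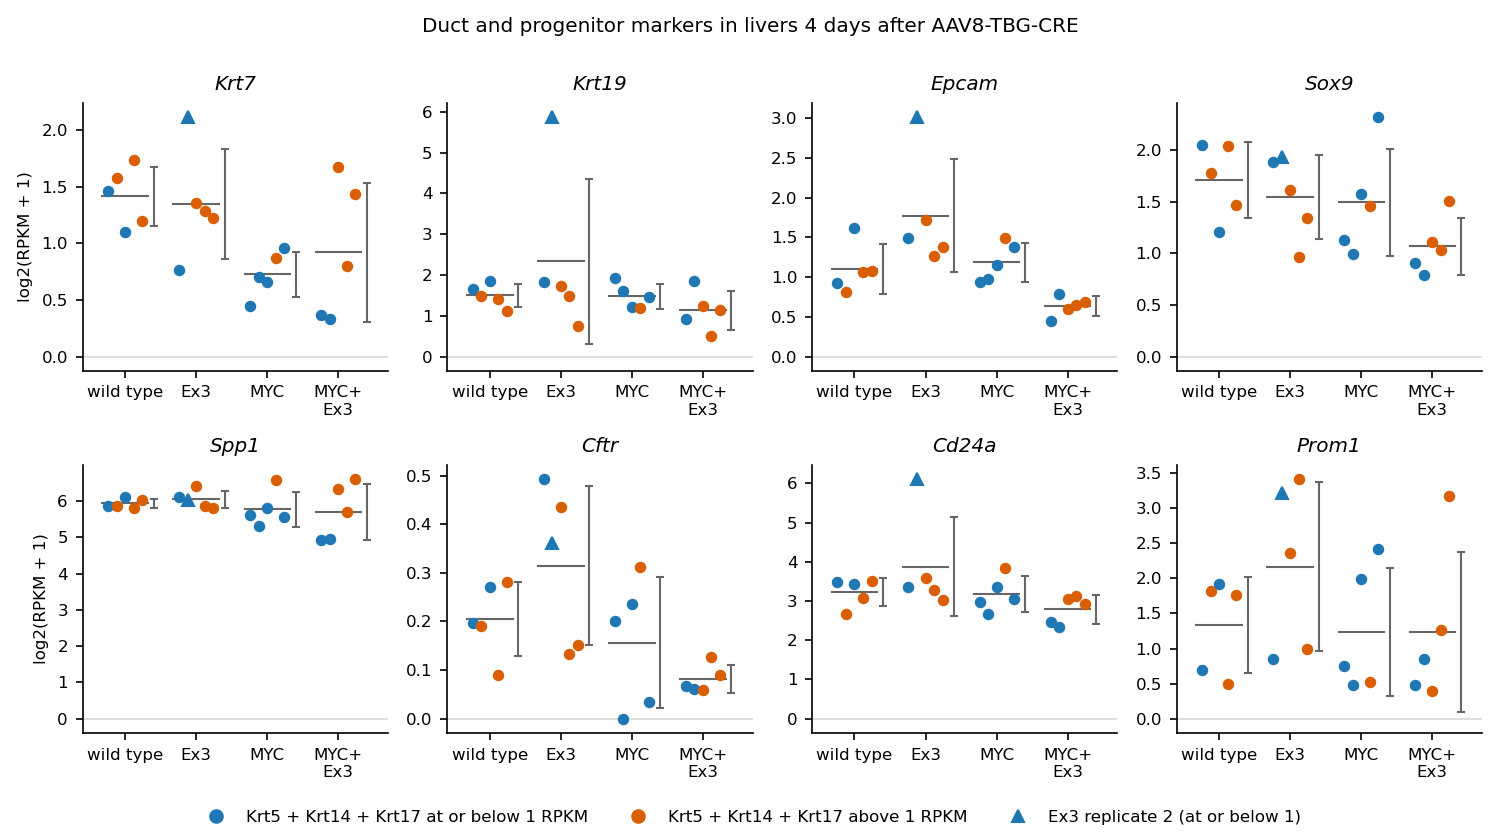
log2(RPKM + 1) of the 8 markers (vertical axes) in the 20 virus-treated livers, by genotype (horizontal axes); each point is a liver, lines are means, bars are ± SD (n = 5), and colour marks the livers with stratified keratins above 1 RPKM in sum. Ex3 replicate 2, the triangle, lies above every other liver for Krt7, Krt19, Epcam and Cd24a. All MYC+Ex3 livers lie below all other livers for Epcam, narrowly for the lowest wild-type liver.

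Epcam encodes an adhesion molecule of the duct cell surface that hepatocytes of the healthy liver lack. The 5 MYC+Ex3 livers held Epcam at 0.369, 0.729, 0.517, 0.571 and 0.604 RPKM (0.558 ± 0.131 SD, n = 5). The 5 Ex3 livers held it at 1.80, 7.06, 2.29, 1.405 and 1.61 RPKM, and no MYC+Ex3 liver reached the lowest Ex3 liver. The wild-type livers ranged from 0.762 to 2.08 RPKM (7 to 26 reads) and the MYC livers from 0.923 to 1.82 RPKM (10 to 22 reads). All 5 MYC+Ex3 livers were also below every liver of those genotypes, but narrowly for wild type. The nearest were MYC+Ex3 replicate 2 at 0.729 RPKM from 11 reads and wild-type replicate 2 at 0.762 RPKM from 7 reads, where 1 read is worth 0.109 RPKM. The share of all genes without overlap was not counted for the virus-treated livers. Between MYC+Ex3 and Ex3 livers Epcam fell by 1.14 ± 0.25 (SE) on the log2(RPKM + 1) scale (limma adjusted p = 0.00250). It was the only one of the 7 tested markers called in this comparison, in which 21.1% of all genes were called. Without Ex3 replicate 2 the change was -0.83 with an adjusted p of 0.00188. Among livers without the stratified keratins, which include Ex3 replicate 2, it was -1.63 (adjusted p = 0.0292), and among those with them -0.81 (adjusted p = 0.0189). Over the processing alternatives the adjusted p ran from 0.000808 to 0.0292.

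Against wild type, Epcam in MYC+Ex3 livers changed by -0.47 ± 0.25 (adjusted p = 0.185) and was not called, although the groups did not overlap. Without Ex3 replicate 2, which enters only the shared estimate of spread, the same change had an adjusted p of 0.0413. Against MYC livers it changed by -0.55 ± 0.25 (adjusted p = 1.000). In Ex3 livers against wild type the value was 0.67 ± 0.25 (adjusted p = 0.725), and 0.36 without Ex3 replicate 2. The interaction, that is, the effect of Ex3 in MYC livers minus its effect in livers without MYC, was -1.22 ± 0.35 for Epcam, with an unadjusted p of 0.00251 and an adjusted p of 1.000. Recovered reads in MYC+Ex3 livers numbered only 4 to 11 per library, so the size of the fall is loosely known.

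Krt7 and Krt19 are the keratin pair of duct cells. Krt7 was at 1.76, 1.98, 1.14, 2.33 and 1.30 RPKM in wild-type livers (1.70 ± 0.489 SD) and at 0.360, 0.623, 0.574, 0.833 and 0.942 RPKM in MYC livers (0.666 ± 0.228 SD), with no overlap. The change of -0.69 ± 0.26 had an adjusted p of 0.0597, and none of the 7 tested markers was called in MYC livers against wild type, where 22.3% of all genes were. Krt7 was the only marker with an unadjusted p under 0.05 there. It passed with median-ratio scaling (adjusted p = 0.0438) and in a fit of these 10 livers alone (adjusted p = 0.0193). It also passed without Ex3 replicate 2 (adjusted p = 0.0404) or MYC+Ex3 replicate 3 (adjusted p = 0.0395), which enter only the spread. Voom (adjusted p = 0.0752), the keratin set as a term (-0.56, adjusted p = 0.110) and livers without stratified keratins (-0.59, adjusted p = 0.303) gave no call. With any other library left out it was not called (adjusted p up to 0.136). The keratin sets are unequal here, with 1 MYC liver and 3 wild-type livers holding the keratins. In the authors' deposited table its log2 fold change was -1.09 with an adjusted p of 0.0254. The MYC livers held 3 to 10 Krt7 reads each and the wild-type livers 9 to 18.

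In MYC+Ex3 livers Krt7 was spread from 0.259 to 2.19 RPKM. The 2 livers without stratified keratins were at 0.288 and 0.259 RPKM, and the 3 with them at 2.19, 0.742 and 1.70 RPKM. Such a split did not appear in wild-type livers, where livers with the keratins were at 1.98, 2.33 and 1.30 RPKM and those without at 1.76 and 1.14 RPKM. Among livers without the keratins Krt7 differed from wild type by -0.93 (adjusted p = 0.105) and among those with them by -0.20 (adjusted p = 0.619).

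Krt19 was at 57.5 RPKM in Ex3 replicate 2, from 478 reads, and at 2.57, 2.30, 1.81 and 0.689 RPKM in the other Ex3 livers. The 15 livers of the other genotypes ranged from 0.429 to 2.77 RPKM. The change of Krt19 in Ex3 livers against wild type, 0.83 ± 0.61, was -0.06 without that liver. None of the 7 markers was called in Ex3 livers against wild type with or without it, by limma on log2(RPKM + 1) or by voom on recovered reads. In the first of these fits 0.132% of all genes were called, and Epcam alone among the markers had an unadjusted p under 0.05. Wild-type, MYC and MYC+Ex3 livers averaged 1.88 ± 0.555, 1.83 ± 0.611 and 1.29 ± 0.806 RPKM (SD, n = 5 each), and their ranges overlapped.

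Cd24a encodes a small glycosylated surface protein. Ex3 replicate 2 held it at 67.9 RPKM and the other Ex3 livers at 9.31, 11.0, 8.65 and 7.17 RPKM, while wild-type livers held 5.31 to 10.3 RPKM. The change in Ex3 livers moved from 0.64 ± 0.41 to 0.08 without that liver. MYC livers held 5.35 to 13.5 RPKM and MYC+Ex3 livers 4.06 to 7.78 RPKM. MYC+Ex3 against Ex3 livers gave -1.09 ± 0.41 (adjusted p = 0.0680), and -0.53 (adjusted p = 0.133) without Ex3 replicate 2. It passed without Ex3 replicate 5 (-1.30, adjusted p = 0.0417) and among livers without the stratified keratins (-2.33, adjusted p = 0.0333), a set with Ex3 replicate 2 in it. Cd24a has processed copies elsewhere in the mouse genome, and how reads shared with them were counted is not given in the sources used here.

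**Figure D2:**
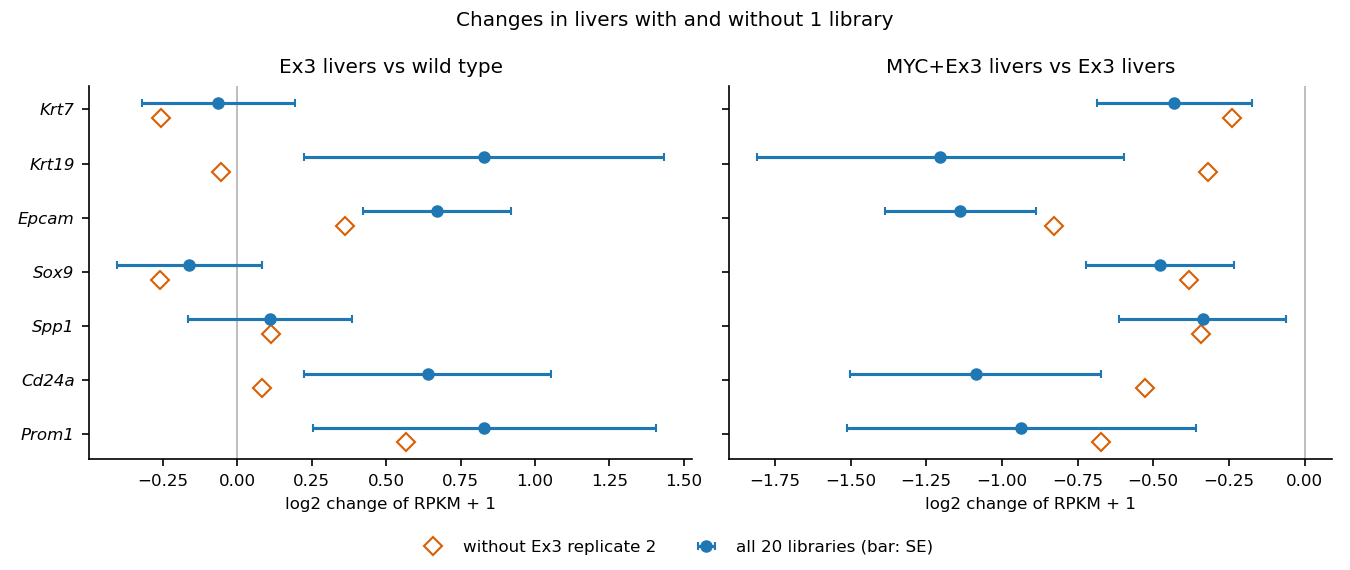
Change in log2(RPKM + 1) (horizontal axes) of the 7 tested markers in Ex3 against wild-type livers and in MYC+Ex3 against Ex3 livers; circles use all 20 livers with the SE as bars, and diamonds leave out Ex3 replicate 2. Without that liver Krt19 moves from 0.83 to -0.06 and Cd24a from 0.64 to 0.08 in the first comparison, while Epcam stays at -0.83 in the second.

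Prom1 encodes the membrane protein CD133 of duct cells and progenitors. In wild-type livers it was at 0.625, 2.53, 2.77, 0.407 and 2.40 RPKM, so that the livers fell into a low and a high set. The levels followed sex as read from Xist and Ddx3y: the 8 female livers of the 4 genotypes lay at 2.40 to 9.66 RPKM, and the 12 male livers at 0.317 to 1.398 RPKM apart from Ex3 replicate 2, a male liver at 8.35 RPKM. Females were 3 of the 5 wild-type livers, 2 of the Ex3 livers, 2 of the MYC livers and 1 of the MYC+Ex3 livers. Means were 1.75 ± 1.13 RPKM in wild type, 4.79 ± 4.10 in Ex3, 1.77 ± 1.81 in MYC and 2.19 ± 3.29 in MYC+Ex3 livers (SD, n = 5 each), and no change was called. With sex as a covariate the change in MYC+Ex3 livers against wild type turned from -0.11 to 0.51, and that in MYC livers from -0.11 to 0.20, both uncalled.

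Sox9, the transcription factor that marks ducts and their progenitors, was at 3.14, 2.44, 1.31, 3.13 and 1.76 RPKM in wild-type livers and at 0.881, 0.725, 1.16, 1.04 and 1.85 RPKM in MYC+Ex3 livers. The ranges overlapped, the change was -0.64 ± 0.24, and the adjusted p was 0.0626. None of the 7 tested markers was called in this comparison, where 24.1% of all genes were. Sox9 was the marker with an unadjusted p under 0.05. It passed with median-ratio scaling (adjusted p = 0.0399) and in a fit of these 10 livers alone (adjusted p = 0.0403). It also passed without wild-type replicate 3, MYC replicate 5 or MYC+Ex3 replicate 5 (adjusted p from 0.0312 to 0.0369). The keratin set as a term (adjusted p = 0.0588), livers without stratified keratins (adjusted p = 0.205) and livers with them (adjusted p = 0.140) gave no call. Over all left-out libraries the adjusted p reached 0.147. In the authors' deposited table Sox9 was at a log2 fold change of -1.03 with an adjusted p of 0.00427. MYC livers ranged from 0.993 to 4.00 RPKM and Ex3 livers from 0.948 to 2.83 RPKM.

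Spp1 encodes osteopontin, a secreted glycoprotein, and had the highest RPKM of the 8 markers in every virus-treated liver but Ex3 replicate 2. Wild-type livers lay close together at 55.3 to 68.8 RPKM and Ex3 livers at 54.9 to 85.0 RPKM. MYC livers were at 47.7, 38.4, 54.8, 95.2 and 46.4 RPKM, and MYC+Ex3 livers at 29.6, 30.2, 80.2, 50.9 and 96.2 RPKM. Their means, 56.5 and 57.4 RPKM, hardly differed from the wild-type mean of 60.4 RPKM, and no change was called. The stratified-keratin split separated the levels within these genotypes: the only MYC liver with the keratins was replicate 4 at 95.2 RPKM, and the 2 MYC+Ex3 livers without them were at 29.6 and 30.2 RPKM. Depth differed as well. The MYC+Ex3 livers had, in the order above, 6.57, 7.31, 3.75, 5.10 and 4.81 M reads in genes. Among MYC livers replicate 4 had 4.54 M reads and replicate 3, at 54.8 RPKM, 4.39 M. The part of depth in these differences was not tested. Among the 10 livers without the keratins Spp1 fell in MYC+Ex3 against wild-type livers by 1.04 ± 0.17 (adjusted p = 0.00246), and against Ex3 livers by 1.11 ± 0.17 (adjusted p = 0.00190). Each of these sets 2 livers against 2. Among livers with the keratins, 3 against 3, the differences were 0.31 ± 0.24 (adjusted p = 0.396) and 0.18 ± 0.24 (adjusted p = 0.670), of the opposite sign. The summed level of 7 macrophage genes was 253 to 475 RPKM in MYC+Ex3 livers and 224 to 424 RPKM in wild-type livers. That of 5 genes of activated macrophages was 21.3 to 102 RPKM in MYC+Ex3 and 28.5 to 86.9 RPKM in MYC livers against 10.6 to 23.9 RPKM in wild type. In MYC+Ex3 livers 2 of the 5 were called higher (24.1% of all genes called) and in MYC livers 3 (22.3%). The part of these cells in the Spp1 spread was not tested.

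Cftr, the chloride channel of the duct cell's apical membrane, gave 0 to 14 reads per virus-treated liver and was not tested in the fit. Its level was 0.0417 to 0.0921 RPKM in MYC+Ex3 livers, 0.0970 to 0.407 in Ex3 livers, 0.0643 to 0.214 in wild type and up to 0.241 in MYC livers, where 1 liver had no read. MYC+Ex3 and Ex3 livers did not overlap, with an exact two-sided permutation p of 0.00794, the smallest that 5 against 5 livers allow. Against wild type the exact permutation p was 0.0238. These are 2 of 17 such unadjusted tests run for markers outside the fit, and with 1 to 3 reads in each MYC+Ex3 liver the level is close to that of a single read.

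MYC+Ex3 and MYC livers were compared directly. None of the 7 tested markers was called by limma on log2(RPKM + 1) or by voom, and 0.19% of all genes were called in the first fit. Epcam was the only marker with an unadjusted p under 0.05. The interaction called no marker and no gene (0% of 13688 genes by limma, 132 of them with an unadjusted p under 0.05). Voom on recovered reads also called no marker for the interaction.

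Of 34 other duct genes 26 were tested in the virus-treated livers. The list includes Cp, Krt8 and Krt18, at 62.9 to 138, 118 to 266 and 111 to 250 RPKM in these livers. Whether changes of the listed genes arose in duct cells was not tested. None of the 26 was called in Ex3 livers against wild type, where 0.132% of all genes were. In MYC+Ex3 livers against wild type, where 24.1% of all genes were called, 0 were higher and 4 lower: Onecut2, a transcription factor of duct and hepatocyte development (-0.63), Cp (-0.51), Alcam (-0.48) and Pkd2 (-0.39). Against Ex3 livers (21.1% of all genes called) 3 were lower, namely Ehf (-0.94), Onecut2 (-0.59) and Bicc1 (-0.54). In MYC livers (22.3% of all genes called) Anxa2 and Anxa4 rose by 0.83 and 0.30 while Onecut2 changed by -0.72. MYC liver replicate 4 held the highest level of all virus-treated livers for Anxa2 and Anxa4 and the lowest for Onecut2. The median change of the 26 genes was -0.06 in MYC+Ex3 livers against wild type, beside 0.05 for all genes.

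Of 14 tested progenitor genes other than the markers, 4 rose and 2 fell in MYC+Ex3 livers against wild type, where 24.1% of all genes were called. The largest of these changes were in Lgr5, a b-catenin target and stem cell receptor (1.35), Tnfrsf12a, the TWEAK receptor of progenitor expansion (1.35), Gpc3 (0.88) and St14 (0.62). Lgr5 was the only one of them called in Ex3 livers (1.64), where 0.132% of all genes were called, and Tnfrsf12a rose in MYC livers by 1.53. None of 20 tested Notch pathway genes, which direct duct fate, was called in any virus comparison. The share of all genes called was 22.3% in MYC and 24.1% in MYC+Ex3 livers against wild type, and 21.1% in MYC+Ex3 against Ex3 livers. It was 0.19% or less in the other comparisons, where almost no gene was called. Of 13 tested genes of secretin-driven chloride secretion other than Cftr, 1 was called in MYC+Ex3 livers against wild type (24.1% of all genes called). It was Car2, a carbonic anhydrase, which rose by 1.12. Of 11 tested osteopontin receptor genes, 1 fell and 1 rose in MYC+Ex3 livers against wild type: Itga8 changed by -0.81 and Itga5 by 0.80.

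**Figure D3:**
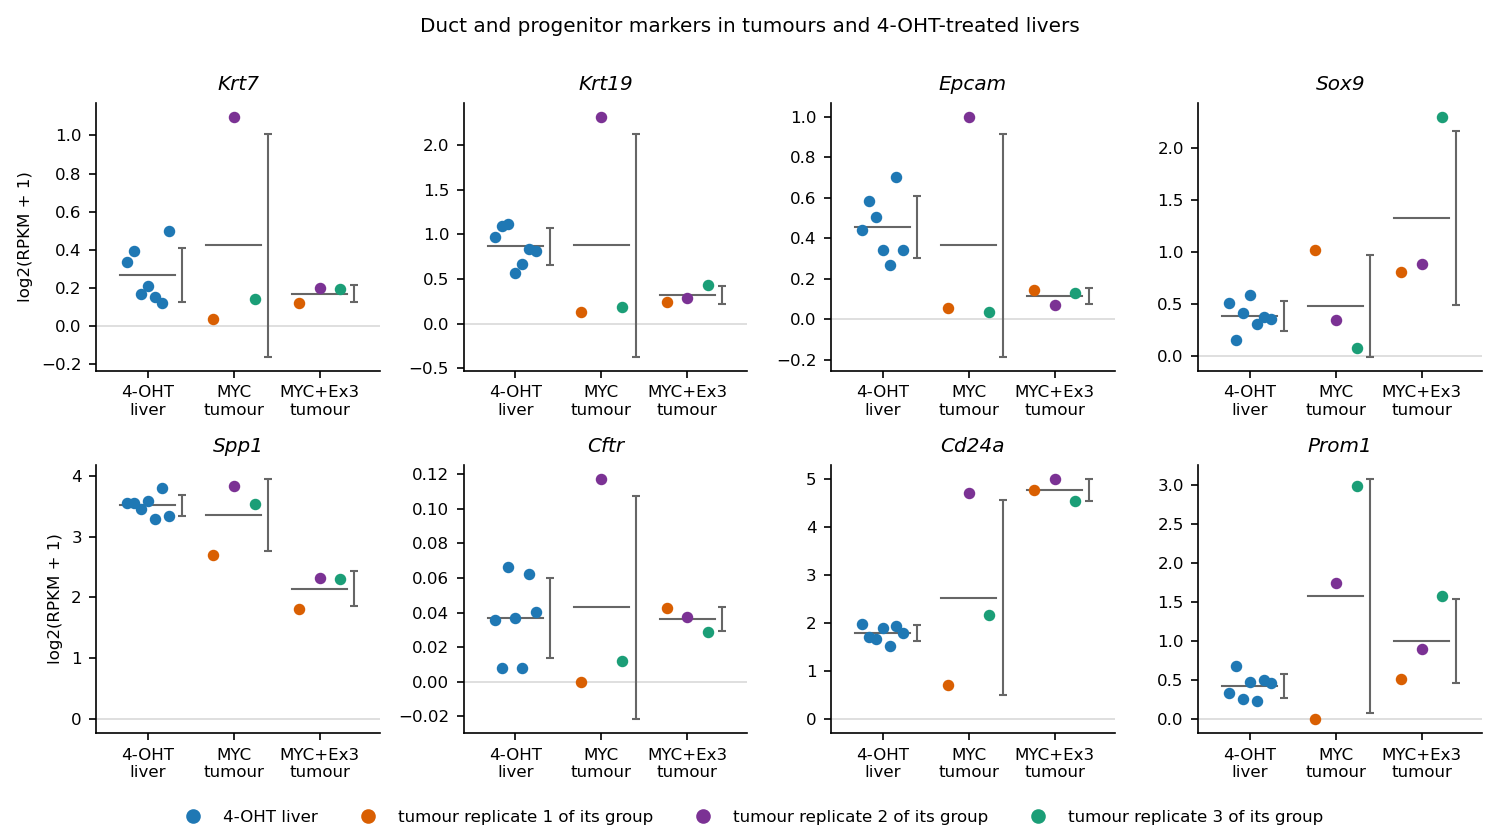
log2(RPKM + 1) of the 8 markers (vertical axes) in 7 4-OHT livers, 3 MYC tumours and 3 MYC+Ex3 tumours (horizontal axes); each point is a library, lines are means and bars are ± SD, and tumour colours give the replicate number within each group. MYC+Ex3 tumours lie apart from all 4-OHT livers for Krt19, Epcam, Sox9, Spp1 and Cd24a; in MYC tumours replicate 2 carries Krt7, Krt19, Epcam and Cftr.

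In MYC+Ex3 tumours Cd24a was at 26.3, 31.1 and 22.6 RPKM (26.7 ± 4.26 SD, n = 3), while the 7 4-OHT livers had a lowest, median and highest level of 1.88, 2.46 and 2.94 RPKM. All 3 nodules were far above all 7 livers, and the mean was 10.8-fold higher. The change was 2.99 ± 0.54 on the log2(RPKM + 1) scale (limma adjusted p = 0.000282). Spp1 went the other way, at 2.51, 3.99 and 3.91 RPKM in the nodules and 8.82 to 12.9 in the livers. It fell by 1.37 ± 0.20 (adjusted p = 4.84e-05). These were the 2 markers called of 4 tested, 1 higher and 1 lower, where 60.6% of all genes were called.

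Of all 8 markers, 5 did not overlap between MYC+Ex3 tumours and 4-OHT livers, against 44.8% of the 18517 genes with a read in these groups. Sox9 was at 0.757, 0.848 and 3.93 RPKM in the nodules and at 0.112 to 0.502 in the livers. Epcam was at 0.107, 0.0487 and 0.0943 RPKM in the nodules, from 3 to 8 reads each, and at 0.205 to 0.630 RPKM in the livers, from 12 to 46 reads. Both fell outside the filter and had an exact two-sided permutation p of 0.0167, the smallest that 3 against 7 libraries allow. Krt19 was at 0.180, 0.219 and 0.354 RPKM in the nodules against 0.479 to 1.17 in the livers. It was tested and not called (-0.55 ± 0.35, adjusted p = 0.189), in a fit whose spread includes the MYC tumours. Voom on recovered reads with a filter of 10 reads in 3 libraries, an alternative added after the data were seen, called 4 of the 7 markers it tested (not Cftr), where 57.9% of all genes were called. There Sox9 rose by 2.06 (adjusted p = 0.0122) and Epcam fell by 2.21 (adjusted p = 0.0467), while Krt19 stood at -1.85 (adjusted p = 0.0995). In the authors' deposited table the log2 fold changes were -1.88 for Krt19 (adjusted p = 1.17e-06), -2.22 for Epcam (adjusted p = 1.00e-05) and 2.15 for Sox9, with no adjusted p given.

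Krt7 was at 0.0867, 0.148 and 0.143 RPKM in MYC+Ex3 tumours, within or just under the 4-OHT range of 0.0889 to 0.411 RPKM. Cftr was at 0.0203 to 0.0301 RPKM, from 4 to 7 reads, inside the range of the livers. Prom1 was at 0.425, 0.849 and 1.98 RPKM against 0.167 to 0.592 in the livers (0.58 ± 0.43, adjusted p = 0.257). The highest of these nodules, replicate 3, was the only female tumour. In the livers of this experiment females were at 0.385 to 0.592 RPKM and males at 0.167 to 0.372 RPKM. Without MYC tumour replicate 1 the adjusted p of Prom1 in MYC+Ex3 tumours was 0.0496. The gene passed the filter through tumours alone, so that this value is no support for a difference by itself.

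MYC tumours did not share a marker pattern. Krt19 was at 0.0915, 3.98 and 0.138 RPKM, Epcam at 0.0406, 0.999 and 0.0263 RPKM, and Krt7 at 0.0264, 1.14 and 0.102 RPKM. For all 3 genes replicate 2 was above every 4-OHT liver, and for Krt19 and Epcam the other nodules were below every 4-OHT liver. The mean Krt19 of the MYC tumours, 1.402 ± 2.23 RPKM (SD, n = 3), was 0.115 RPKM without replicate 2, and that of Epcam moved from 0.355 to 0.0335 RPKM. Cd24a was at 0.622, 25.4 and 3.47 RPKM, so that replicate 1 lay below all livers and the other nodules above them. Its change against 4-OHT livers was 0.74 ± 0.54 (adjusted p = 0.268). Leaving out replicate 1 made it 1.66 (adjusted p = 0.00464), and leaving out replicate 2 turned it to -0.35 (adjusted p = 0.292). In the authors' deposited table Cd24a was 1.46 with an adjusted p of 0.0210.

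Prom1 was the only marker called in MYC tumours, where 49.8% of all genes were called. It was at 0, 2.34 and 6.87 RPKM, from 0, 459 and 1281 reads, against 0.167 to 0.592 RPKM in the livers. The change was 1.16 ± 0.43 (adjusted p = 0.0356). The gene passed the filter through tumours alone, so that the call is no support for a difference by itself. It was not tested without replicate 2 or replicate 3, or in a fit of these 10 libraries alone, where it fell outside the filter. Without the filter it was not called (adjusted p = 0.0671). Without replicate 1 the change was 1.94 (adjusted p = 9.15e-05), and with a pseudocount of 0.1 the call was lost (adjusted p = 0.188). It was also lost without 4-OHT liver replicate 1, 3 or 5 (adjusted p from 0.0508 to 0.0542), by voom (adjusted p = 0.733), and with either set of control livers. Sox9 ran in another order, at 1.03, 0.273 and 0.0523 RPKM: replicate 1 was above, replicate 2 within and replicate 3 below the range of the livers. Spp1 was at 5.49, 13.2 and 10.7 RPKM. Replicate 1 lay below all livers, and the change was -0.16 ± 0.20 (adjusted p = 0.537). Cftr gave 0, 21 and 2 reads, with 0.0846 RPKM in replicate 2 above every 4-OHT liver.

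MYC+Ex3 and MYC tumours differed in Spp1 alone among the 4 tested markers, with 4.13% of all genes called. All 3 MYC+Ex3 tumours were below all 3 MYC tumours for Spp1, and the share of all genes without overlap was not counted here. Spp1 fell by 1.21 ± 0.24 (adjusted p = 0.00937). It was not called in a fit of these 6 nodules alone (adjusted p = 0.177), without MYC+Ex3 tumour replicate 1 (-1.05, adjusted p = 0.0565), or with the 3 4-OHT livers whose titles begin with S15 as the only controls (adjusted p = 0.0652). Cd24a changed by 2.25 ± 0.64 (adjusted p = 0.0651), and by 3.35 (adjusted p = 1.19e-05) without MYC tumour replicate 2, which was within the range of the MYC+Ex3 nodules. Prom1 changed by -0.58 ± 0.50 (adjusted p = 0.611), and by -1.37 (adjusted p = 0.0204) without MYC tumour replicate 1. By voom on recovered reads its sign was the opposite, at 0.60, and not called. Prom1 had passed the filter through tumours alone, so that the value without replicate 1 is no support for a difference by itself. Sox9 was higher by 0.85 with an exact permutation p of 0.300, where 3 against 3 nodules cannot go below 0.1.

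Markers of other cells also differed in the tumours, not all in the direction of Cd24a and Spp1. The summed level of 4 neutrophil genes was 105 to 138 RPKM in MYC+Ex3 tumours and 9.73 to 30.9 RPKM in 4-OHT livers, and that of 4 red cell genes 64.0 to 79.1 against 13.2 to 30.6 RPKM. In MYC tumours the neutrophil sum was 10.5, 104 and 57.5 RPKM and the red cell sum 10.4, 61.6 and 14.5 RPKM, with replicate 2 highest in both, as for Cd24a. Lymphocyte sums were lower in MYC+Ex3 tumours, unlike Cd24a. That of 4 B cell genes was 1.02 to 1.11 RPKM there and 2.09 to 7.05 RPKM in 4-OHT livers. For 3 T cell genes it was 0.425 to 0.656 against 0.631 to 1.15 RPKM, with overlap. In MYC tumours the B cell sum was 1.10, 6.08 and 1.13 RPKM and the T cell sum 0.621, 0.845 and 0.683 RPKM. The part of these cells in the Cd24a level was not tested. The summed level of 7 macrophage genes was 47.9 to 59.1 RPKM in MYC+Ex3 tumours, 26.6, 109 and 59.7 RPKM in MYC tumours and 104 to 140 RPKM in 4-OHT livers, in the same order over the 3 MYC tumours as Spp1. That of 5 genes of activated macrophages went the other way, at 19.0 to 32.03 RPKM in MYC+Ex3 tumours, 18.0, 23.5 and 41.9 RPKM in MYC tumours and 9.64 to 12.1 RPKM in 4-OHT livers. Of these genes 3 of 5 were called higher in MYC+Ex3 tumours (60.6% of all genes called) and 5 of 5 in MYC tumours (49.8%). The sum of 8 stellate cell and fibroblast genes was 23.5 to 29.7 RPKM in MYC+Ex3 tumours, 25.9, 44.0 and 47.7 RPKM in MYC tumours and 38.1 to 47.8 RPKM in 4-OHT livers. In MYC+Ex3 tumours 1 of the 8 was called higher and 5 lower, beside the same 60.6% of all genes called. The part of these cells in the Spp1 level was not tested.

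**Figure D4:**
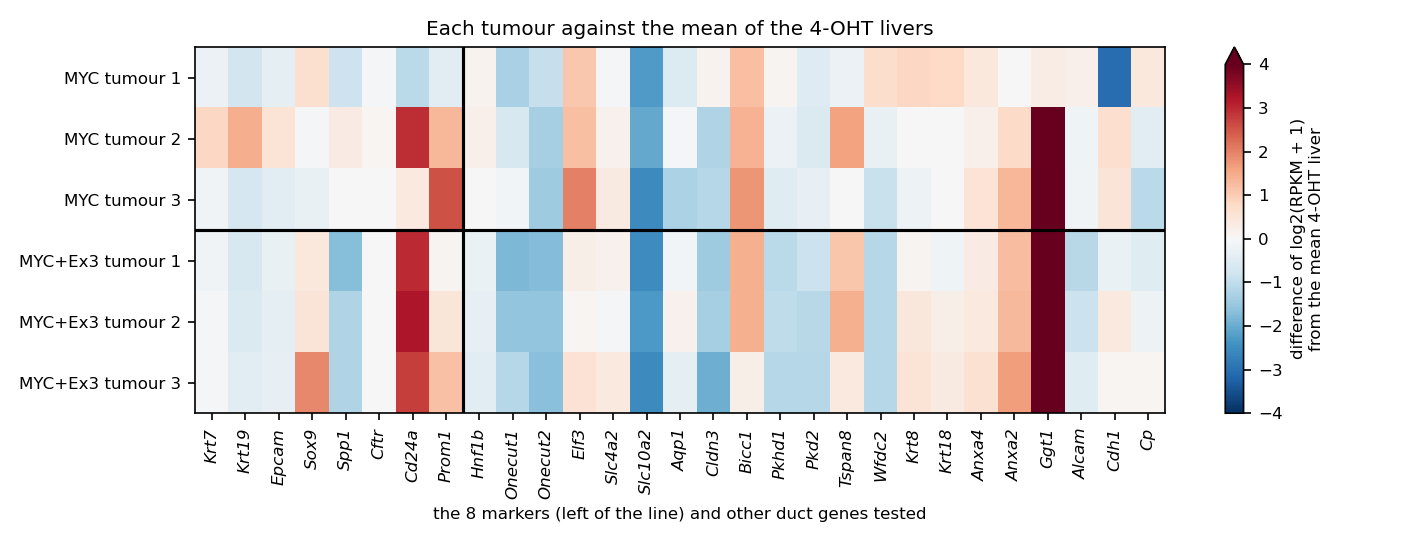
Difference of log2(RPKM + 1) of each tumour (rows) from the mean of the 4-OHT livers, for the 8 markers and the 21 other duct genes tested (columns); red is higher and blue lower, and Ggt1 runs past the end of the scale. Cd24a is high in all MYC+Ex3 tumours and in MYC tumour replicate 2, and Slc10a2 is low in all 6 tumours.

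Of 21 other duct genes tested in the tumours, 5 rose and 9 fell in MYC+Ex3 tumours against 4-OHT livers, where 60.6% of all genes were called. In MYC tumours 5 rose and 5 fell, where 49.8% were called. Of the 5 that rose, 3 in each comparison had passed the filter through tumours alone: Bicc1 and Ggt1 in both, with Tspan8 in MYC+Ex3 and Elf3 in MYC tumours. In MYC+Ex3 tumours the largest changes were in Ggt1, a gamma-glutamyltransferase of ducts and fetal liver (4.60), Slc10a2, the bile acid transporter (-2.45), Onecut2 (-1.66) and Cldn3, a tight junction protein (-1.57). In MYC tumours they were in Ggt1 (2.99), Slc10a2 (-2.28), Bicc1 (1.46) and Elf3, an epithelial transcription factor (1.43). Among MYC tumours Ggt1 read 0.275 RPKM for replicate 1, 17.9 for replicate 2 and 22.4 for replicate 3. The median change of the 21 genes was -0.11 in MYC+Ex3 tumours, beside 0.23 for all genes, and -0.05 in MYC tumours, beside 0.19. Between the tumour types, with 4.13% of all genes called, 4 were lower in MYC+Ex3 nodules, namely Elf3 (-1.14), Pkhd1 (-0.88), Alcam (-0.77) and Pkd2 (-0.57). Of these, Elf3 had passed the filter through tumours alone, so that its call is no support for a difference by itself.

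Of 15 tested progenitor genes 9 rose and 2 fell in MYC+Ex3 tumours (60.6% of all genes called), and 9 rose and 3 fell in MYC tumours (49.8%). The median change was 1.35 and 0.92, beside 0.23 and 0.19 for all genes. In each comparison 6 of the 9 that rose had passed the filter through tumours alone, with all 4-OHT livers under 1 RPKM, Bex1, Gpc3 and Igdcc4 among them, so these counts and medians are a description. The largest changes in MYC+Ex3 tumours were in Bex1 (4.79), Gpc3, an oncofetal surface proteoglycan (4.10), Afp (3.89) and Igdcc4 (2.60). In MYC tumours they were in Bex1 (3.03), Afp (2.46), Igdcc4 (2.25) and Gpc3 (1.82). MYC tumour replicate 1 stood apart here too: Bex1 was at 0.387 RPKM in it, with 21.8 in replicate 2 and 23.0 in replicate 3, and the sum of the 22 listed genes was 48.8, 102 and 126 RPKM. Gpc3 and Lgr5 were higher in MYC+Ex3 than in MYC tumours, by 2.28 and 1.94, and Cd34 differed by -0.84 (4.13% of all genes called). Gpc3 and Lgr5 had both passed the filter through tumours alone, so that their calls are no support for a difference by themselves. Of 15 tested Notch genes, 2 rose and 5 fell in MYC+Ex3 tumours against 4-OHT livers. Lfng (-0.92), Hes6 (-0.91), the ligand Jag1 (-0.78) and the ligand Dll1 (-0.55) showed the largest changes. In MYC tumours 1 rose and 3 fell, with Nrarp at 0.68 and Lfng at -0.64. Of 12 tested secretion genes, 3 rose and 2 fell in MYC+Ex3 tumours (60.6% of all genes called), and 2 rose and 2 fell in MYC tumours (49.8%). Car2 rose by 1.99 in MYC+Ex3 tumours and by 0.74 in MYC tumours. Of 10 tested osteopontin receptor genes, 1 rose and 2 fell in MYC+Ex3 tumours (60.6% of all genes called), and 1 rose and 1 fell in MYC tumours (49.8%). Itga9 fell by 1.33 in MYC+Ex3 tumours and by 1.13 in MYC tumours.

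Likeness to each marker was measured as Pearson's r of log2(RPKM + 1) over the libraries of an experiment after the group means were subtracted, as a description with no test. The points share library depth and tissue composition. Over the 20 virus-treated livers the genes most like Krt19 were B4galnt2, Myh11 and Myl9 (r from 0.909 to 0.918), and those most like Cd24a were Tspan8, Epcam and Ehf (r from 0.854 to 0.874). Without Ex3 replicate 2 they were other genes: Cyr61, Dgkq and Mlxipl for Krt19 (r from 0.779 to 0.883), and Hist1h4d, Sccpdh and Hist1h1e for Cd24a. For Spp1 the nearest gene was Timp1 with and without that liver (r = 0.855 in both). Without that liver Prom1 was nearest to Sult2a1, Sult2a2 and Cyp3a44 (r from 0.930 to 0.938), which are known as genes of female mouse liver. Over the 13 libraries of the tumour experiment Cd24a was nearest to 1700019D03Rik, Elane, a neutrophil protease, and Smox (r from 0.983 to 0.985).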

How the data were processed

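A single table held the values of all 33 libraries. RPKM values were deposited by the authors; per the submitters' processing notes the tools were TopHat2 2.0.8, SAMtools, featureCounts 1.4.5-p1 and DESeq2 with build mm9, in an order and with settings not given in the sources used here. The log2 fold changes and adjusted p-values of 7 comparisons in the authors' deposited table were copied as they stand. RPKM values were found to be whole multiples of the value of 1 read in 100% of the 20485 genes with a value above 0 (within 0.001 reads), which gave reads per library and gene. RPKM was tested as log2(RPKM + 1) with limma 3.58.1 (R 4.3.3, eBayes with trend), the 20 virus-treated livers and the 13 libraries of the tumour experiment apart, with 9 comparisons. Genes entered with at least 1 RPKM in 3 libraries and p-values were adjusted over all genes tested. Markers outside the filter had exact permutation tests in SciPy 1.17.1. In simulated data 41.0% of genes with a log2 change of 1 and 94.6% of those with 2 were called in MYC livers against wild type (39.2% and 100% in MYC tumours). Alternatives were the pseudocount, the filter, median-ratio scaling, the groups fitted, sex, voom, the keratin split, the control sets of the tumour experiment and each library left out; the voom fit with 10 reads, the unfiltered fit with a pseudocount of 0.1, the likeness without single libraries and the split by sex were added after the data were seen. The markers and gene lists were chosen with earlier results of these data known. Named list genes are up to 4 with the largest absolute change among those called. Each library is labelled as its own animal or nodule; whether nodules came from separate mice is not stated, and p-values cover the spread between these samples. Depth limits markers with few reads most, and read counts cover counting error only.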

Additional observations from a re-analysis of the deposited data

Results flagged for a closer look

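Of 40 combinations of a marker and a group of 5 or 7 libraries, 6 held a library far from its group, by the gap to its neighbour over the range of the group. A rate of about 1 in 20 would hold for normal, independent values. RPKM values of combinations that share libraries need not meet this, so an excess over that rate was not tested. Ex3 liver replicate 2 accounted for 3 of them, with Krt19 at 57.5 RPKM, Cd24a at 67.9 RPKM and Epcam at 7.06 RPKM. Epcam stood apart in wild-type liver replicate 3 at 2.08 RPKM, Spp1 in MYC liver replicate 4 at 95.2 RPKM, and Prom1 in MYC+Ex3 liver replicate 5, the only female liver of its group, at 8.02 RPKM. Groups of 3 tumours are too small for this comparison.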

How the results depend on the processing

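Of 621 values under other processing settings, 552 kept their direction and side of the threshold or stayed within the tolerance set for them, and of 978 values with a library left out 925 did. The cause of each change below was not tested. Log2 changes that turned sign were uncalled in the reported fit and under the other setting. Among livers without stratified keratins they were, against wild type, 0.16 for Krt7 and 0.28 for Sox9 in Ex3 livers and -0.17 for Epcam and 0.10 for Prom1 in MYC livers; -0.34 for Krt7 and -0.74 for Prom1 in MYC+Ex3 against MYC livers; and -0.50 for Krt7 in the interaction. Among livers with the keratins they were -0.012 for Krt19 in Ex3 livers against wild type, 0.31 for Spp1 and 0.25 for Prom1 in MYC+Ex3 livers against wild type, and 0.012 for Krt7 and 0.18 for Spp1 against Ex3 livers. With the keratin set as a term, Epcam was -0.0036 and Spp1 0.036 in MYC livers against wild type, and Krt19 was 0.049 and Prom1 -0.067 in MYC+Ex3 against MYC livers. With sex as a term, Prom1 was 0.20 in MYC and 0.51 in MYC+Ex3 livers against wild type. Prom1 in MYC+Ex3 against MYC livers was -0.063 with a pseudocount of 0.1, with or without the filter, and -0.12 by both voom fits. Krt19 in MYC tumours against 4-OHT livers was -0.67 with a pseudocount of 0.1, with or without the filter, -0.063 with median-ratio scaling, -0.060 with the S14 controls, and -1.07 and -1.04 by voom. Prom1 between the tumour types was 0.60 and 0.65 by voom.

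The number of markers called became 1 for MYC livers against wild type with median-ratio scaling or the compared groups alone, and 1 for MYC+Ex3 livers against wild type in those fits and among livers without the keratins. For MYC+Ex3 against Ex3 livers it was 2 without the filter (with either pseudocount) or with median-ratio scaling, 3 among livers without the keratins and 0 at a filter of 5 RPKM, which tests fewer genes. For MYC tumours it was 0 with a pseudocount of 0.1, without the filter, with both together, at 5 RPKM, with the compared groups alone, by both voom fits and with either control set. It was 4 for MYC+Ex3 tumours by voom with 10 reads, and 0 between the tumour types with the compared groups alone or the S15 controls.

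With each library left out in turn, the markers called ranged from 0 to 1 for MYC and for MYC+Ex3 livers against wild type, from 1 to 2 for MYC+Ex3 against Ex3 livers, and from 0 to 2 for MYC tumours and between the tumour types. Changes that turned sign ranged, for Ex3 livers against wild type, from -0.26 to 0.081 (Krt7) and -0.055 to 1.22 (Krt19); for MYC livers, from -0.14 to 0.060 (Krt19), -0.22 to 0.077 (Cd24a) and -0.40 to 0.083 (Prom1); and for MYC+Ex3 livers from -0.59 to 0.10 (Prom1). Against MYC livers Spp1 ranged from -0.29 to 0.14 and Prom1 from -0.48 to 0.30, and in the interaction Spp1 ranged from -0.40 to 0.030. In MYC tumours Krt19 ranged from -0.040 to 0.38, Spp1 from -0.39 to 0.17 and Cd24a from -0.35 to 1.66.

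Counts over all genes moved by more than 1.5 times as follows. For Ex3 livers the 18 genes became 31 with sex, 2 in each keratin set, 11 in both added fits and 5 at the lowest with a library left out. For MYC+Ex3 against MYC livers the 26 genes became 11 with a pseudocount of 0.1, 10 without the filter or with the compared groups alone, 6 without the keratins, 9 without the filter and with a pseudocount of 0.1, and 7 at the lowest with a library left out. The count was 1249 for MYC livers without the keratins and 1660 for MYC+Ex3 against Ex3 livers with them. At 5 RPKM it was 3636, 4278 and 240 for the tumour comparisons. Between the tumour types the 489 genes became 70 with the compared groups alone, 287 and 207 with the S14 and S15 controls, and 199 to 764 with a library left out.

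No paired analysis was possible because the replicate numbers were given in accession order and name the samples only. Depth limits Cftr in all libraries. It limits Krt7 and Epcam in the tumours other than MYC tumour replicate 2, at 8 reads or fewer each, where differences of a few reads set the level. In the virus-treated livers Krt7 had 3 to 32 reads and Epcam 4 to 88. Sox9 was less limited in the tumour experiment, with 13 to 76 reads in 4-OHT livers, 8 to 102 in MYC tumours and 105 to 503 in MYC+Ex3 tumours.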

Other observations

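Prom1 was compared between female and male livers within genotypes, a comparison chosen after its values were seen and run for all 8 markers. In the 20 virus-treated livers the exact permutation p was 0.000400 for Prom1 (8 female and 12 male libraries, 5000 arrangements of sex within the genotypes, two-sided, unadjusted). In the 7 4-OHT livers all 3 females were above all 4 males, with an exact permutation p of 0.0571. The other 7 markers had exact permutation p-values of 0.264 to 0.905 in the virus-treated livers.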
